A study of Mus musculus with 8 samples.

Results

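The major urinary protein (Mup) genes Mup1, Mup2, Mup3, Mup7, Mup11, Mup15, Mup17, Mup19, Mup20 and Mup21 were described in livers that lack pyruvate carboxylase, the mitochondrial enzyme that makes oxaloacetate from pyruvate. These 10 genes, of 35275 in the count table, were selected on measured values of the same libraries, the genotype difference among them, so their levels and fold changes are given here as a description, with no p-values. Liver RNA from 4 Pcx f/f control and 4 Pcx L-/- mice was sequenced, with 1 library per mouse. All mice were male, 9 weeks old, of strain C57BL/6 and fasted for 24 h. Both genotypes carry floxed Pcx alleles, and in Pcx L-/- mice a Cre recombinase driven by the albumin promoter deletes them in hepatocytes. The controls are littermates that the sample labels call WT.

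Major urinary proteins are small lipocalins that hepatocytes secrete into the blood and that pass into the urine, where they carry volatile pheromones; Mup20, also called darcin, is itself a male signal. Their genes form a tandem cluster of near-identical copies, and in adult male liver they are among the abundant transcripts of secreted proteins. Their transcription depends on pulsatile growth hormone acting through STAT5, and androgens, thyroid hormone, glucocorticoids and the zinc finger factors ZHX2 and ZBTB20 are known to act on them or on similar genes.

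Pcx itself, the deleted gene, had 19800, 14370, 19510 and 22060 normalized counts in control replicates 1 to 4 and 757.7, 555.7, 678.1 and 732.3 in Pcx L-/- replicates 1 to 4, so the libraries carried the level that their labels imply. A normalized count is a library's reads on a gene divided by the library's effective size, scaled to the geometric mean size of the 8 libraries. Between 12016242 and 20023108 reads per library were counted on genes. In control livers TMM scaling factors ran from 0.833 to 0.942 and in Pcx L-/- livers from 0.970 to 1.16, and scaling by library size alone moved the median log2 fold change of the genes tested up by 0.287. The fold changes below are on the TMM scale, and those from FPKM (reads scaled by gene length and library total) carry that shift. The defining hepatocyte markers were all abundant. Summed over 8 of them, normalized counts ran from 1916900 to 2392440 in controls and from 1058000 to 1652740 in Pcx L-/- livers. By edgeR's quasi-likelihood test at an adjusted p under 0.05, 4 of the 8 were lower in the knockout. Alb, whose groups did not overlap, was not among them (adjusted p = 0.0532). Among all genes tested, 13.5% were lower and 14.1% higher. In bulk tissue, fewer hepatocytes, less RNA per hepatocyte and lower levels of these marker genes alone cannot be told apart.

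Markers of other cell types were counted in the same way. Of 9 macrophage markers 1 was higher and 0 lower, against 14.1% and 13.5% of all genes tested (summed counts 4938.6 to 7060.7 in controls and 5848.4 to 7633.3 in Pcx L-/- livers). Of the 6 endothelial, 6 stellate and 5 red cell markers, 0 passed edgeR's test, and at an unadjusted p under 0.05 the numbers were 2, 0 and 0. Their summed counts ran from 4675.6 to 6399.8, 3464.3 to 5767.8 and 4746.6 to 16715 in controls and from 4141.4 to 4969.9, 2237.3 to 4819.8 and 6243.7 to 69307 in Pcx L-/- livers. Of 5 cholangiocyte markers tested 1 was lower, against 13.5% of all genes tested, with sums of 342.8 to 610.9 and 310.4 to 390.9. Of the glandular markers, included because several exocrine glands also make Mups, Prss1, Amy2a5 and Smr3a had 0 reads, while Cela1 was higher and Amy1 lower. The part of any cell type in the Mup values was not tested.

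All 10 genes lie on the minus strand of chromosome 4, within chr4:60066469-62150863 of GRCm38. The annotation holds 49 Mup genes on all chromosomes, of which 27 are pseudogenes. Mup3 (chr4:62083476-62087342), Mup20 (chr4:62050234-62054158) and Mup21 (chr4:62147932-62150863) sit at the distal end of the cluster, and Mup7 (chr4:60066469-60070475) is the first member at the other end. Mup1, Mup2, Mup7, Mup11, Mup15, Mup17 and Mup19 differ from each other at 2 to 9 coding bases, an identity of 98.33% to 99.63%. Mup20 shares 90.37% to 91.3% of coding bases with these 7, Mup21 84.07% to 85% and Mup3 83.15% to 84.16%. The coding stretch printed here, read from the GENCODE M21 transcripts, was chosen to show that pattern. Mup1, Mup2, Mup7, Mup15 and Mup19 carry the Mup11 stretch letter for letter, and Mup21 carries that of Mup3. Capitals mark bases that differ from Mup11.
Mup11: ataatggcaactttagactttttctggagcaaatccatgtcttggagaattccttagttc
Mup17: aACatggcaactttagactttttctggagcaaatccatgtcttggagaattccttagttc
Mup20: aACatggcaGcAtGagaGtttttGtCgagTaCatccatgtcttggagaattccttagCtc
Mup3: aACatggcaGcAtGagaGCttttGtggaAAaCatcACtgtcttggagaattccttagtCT
Over these 60 bases Mup17 differs from Mup11 at 2 positions, Mup20 at 11 and Mup3 at 15.

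Such identity bears on every count that follows, because a read that matches several copies cannot be assigned by sequence. Of the 100-base windows along each representative transcript, 97.06% of those of Mup3, 95.5% of Mup21 and 61.16% of Mup20 were found in no other annotated gene. That share was 40.58% for Mup17, 16.49% for Mup11, 12.92% for Mup7, 12.8% for Mup1 and 2.66% for both Mup2 and Mup15. Of the 828 windows of Mup19, 0 were found in that transcript alone. Mup20's shared windows were held by the pseudogene Mup-ps19, which had 2 reads in all 8 libraries together. The sources used here do not say how reads with several matches were counted. Reads of 100 bases from Mup3, Mup20 and Mup21 could thus be told apart by sequence along most of the transcript. With windows of 50 bases the share was 84.39% for Mup3, 80.73% for Mup21 and 49.49% for Mup20, and the read length is not given. The other 7 genes are uncertain one by one and are also given as a sum, which would still lack any such reads left uncounted.

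The 10 genes together took 0.998%, 0.770%, 0.968% and 0.762% of the reads of control replicates 1 to 4 and 0.465%, 0.354%, 0.314% and 0.369% of those of Pcx L-/- replicates 1 to 4. Their summed normalized counts were 163643 ± 20268 (SD, n = 4) in controls and 58613 ± 15650 (SD, n = 4) in Pcx L-/- livers, or 35.8% of control. Every control liver was above every Pcx L-/- liver, and Pcx L-/- replicate 1 was the highest of its genotype. Set against the hepatocyte markers, the family had 7.98 ± 1.41 (SD, n = 4) counts per 100 marker counts in controls and 4.58 ± 0.455 (SD, n = 4) in Pcx L-/- livers, which is 57.3% of control. This ratio was added after the data were seen. Alb supplied most of the marker counts, with means of 1268430 of 2070100 in controls and 819900 of 1273410 in Pcx L-/- livers, so the ratio mainly reflects Alb.

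**Figure D1:**
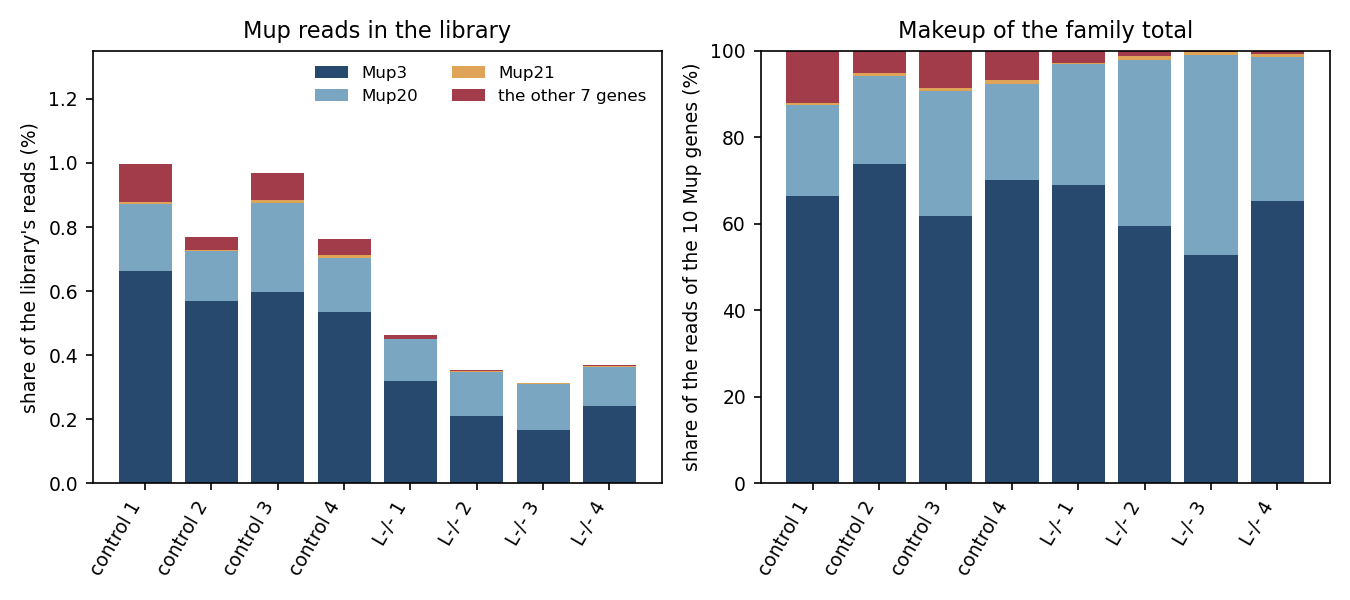
Reads of the 10 Mup genes in each library, as a percentage of all reads counted on genes (left panel) and as a percentage of the family's reads (right panel), stacked as Mup3, Mup20, Mup21 and the sum of the other 7 genes. The total is 0.762% to 0.998% in the 4 controls and 0.314% to 0.465% in the 4 Pcx L-/- livers, where the sum of the other 7 genes takes at most 2.73% of the family.

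Mup3, a divergent copy at the end of the cluster, had the highest FPKM of the members in both genotypes. Its normalized counts were 120830, 102560, 110170 and 108930 in control replicates 1 to 4 and 56189, 30778, 24355 and 36067 in Pcx L-/- replicates 1 to 4. The control livers lay close together, with a coefficient of variation of 6.85%, while the Pcx L-/- livers spread over 37.3%. The fitted log2 fold change was -1.59 (SE 0.24), with a mean at 33.3% of control.

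Mup20, the gene of darcin, had 38188, 28208, 51484 and 34412 normalized counts in control replicates 1 to 4 and 22772, 19885, 21297 and 18289 in Pcx L-/- replicates 1 to 4. Here the spread lay the other way, with a coefficient of variation of 25.9% in controls and 9.33% in Pcx L-/- livers, and the groups did not overlap. Its log2 fold change of -0.89 (SE 0.19), to 54% of control, was the smallest in size among the 10 genes.

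Mup21, whose coding sequence is closest to that of Mup3 in this set, had 899.4, 773.7, 1498 and 1750 normalized counts in control replicates 1 to 4. In Pcx L-/- replicates 1 to 4 it had 227.4, 464.1, 325.8 and 438.6. It was the exception among the members within the knockout group: the other 9 genes had their highest Pcx L-/- level in replicate 1, and Mup21 had its lowest there. Its log2 fold change was -1.75 (SE 0.28), to 29.6% of control.

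The 7 near-identical genes, which all lie at lower coordinates than Mup20, Mup3 and Mup21, together had 7303 to 21920 normalized counts in controls and 145 to 2220 in Pcx L-/- livers. Their sum averaged 13717 ± 6382 (SD, n = 4) in controls and 841 ± 938 (SD, n = 4) in Pcx L-/- livers, 6.13% of control. Relative to control, this sum was lower than Mup3, Mup20 or Mup21. Its SD in Pcx L-/- livers was above its mean, and without replicate 1, which held the highest value, the mean of the other 3 was 381 ± 229, or 2.78% of control.

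Mup7 had the highest mean in that sum in both genotypes, with 15847, 4521, 8385 and 6856 normalized counts in control replicates 1 to 4. In Pcx L-/- replicates 1 to 4 it had 1422, 306.1, 42.8 and 213.3, a log2 fold change of -4.17 (SE 0.85). Leaving out Pcx L-/- replicate 1 took it to -5.57. Mup11 had 3128, 1774, 3570 and 1252 in control replicates 1 to 4 and 483.1, 217.5, 57.5 and 120.1 in Pcx L-/- replicates 1 to 4, with a log2 fold change of -3.48 (SE 0.56). Without Pcx L-/- replicate 1 it was -4.21. In both genes Pcx L-/- replicate 3 was the lowest library and replicate 1 the highest of the knockouts.

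Mup15 had 1583, 537.5, 1619 and 1517 normalized counts in control replicates 1 to 4 and 112.3, 21.4, 7.78 and 3.97 in Pcx L-/- replicates 1 to 4. Its fitted log2 fold change was -5.21 (SE 0.72), and -6.82 without Pcx L-/- replicate 1. Mup17 ranged from 306.6 to 1445 in controls and from 9.33 to 133 in Pcx L-/- livers, with a log2 fold change of -4.36 (SE 0.76), and -6.01 without that library. Both genes were low in control replicate 2 and high in Pcx L-/- replicate 1, relative to the rest of their group.

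Mup2, Mup19 and Mup1 had the lowest FPKM of the members in controls. Mup19 had 93, 32, 109 and 38 raw reads in control replicates 1 to 4 and 6, 1, 1 and 0 in Pcx L-/- replicates 1 to 4, so its log2 fold change of -5.36 (SE 0.63) rests on 8 knockout reads, and became -6.81 without replicate 1. Mup1 ranged from 27.1 to 58 normalized counts in controls and from 2.33 to 11.3 in Pcx L-/- livers, a log2 fold change of -3.12 (SE 0.44), and -3.75 without Pcx L-/- replicate 1.

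Mup2 stood apart from the other 6 near-identical genes. Its normalized counts were 73.7, 102.9, 94.6 and 89.9 in control replicates 1 to 4 and 52.8, 31.3, 24.1 and 47.6 in Pcx L-/- replicates 1 to 4, a log2 fold change of -1.22 (SE 0.25). That is close to the values of Mup3, Mup20 and Mup21, although Mup2 and Mup15 share 560 of their 100-base windows. The share of windows found in no other gene is plotted against the fold change.

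**Figure D2:**
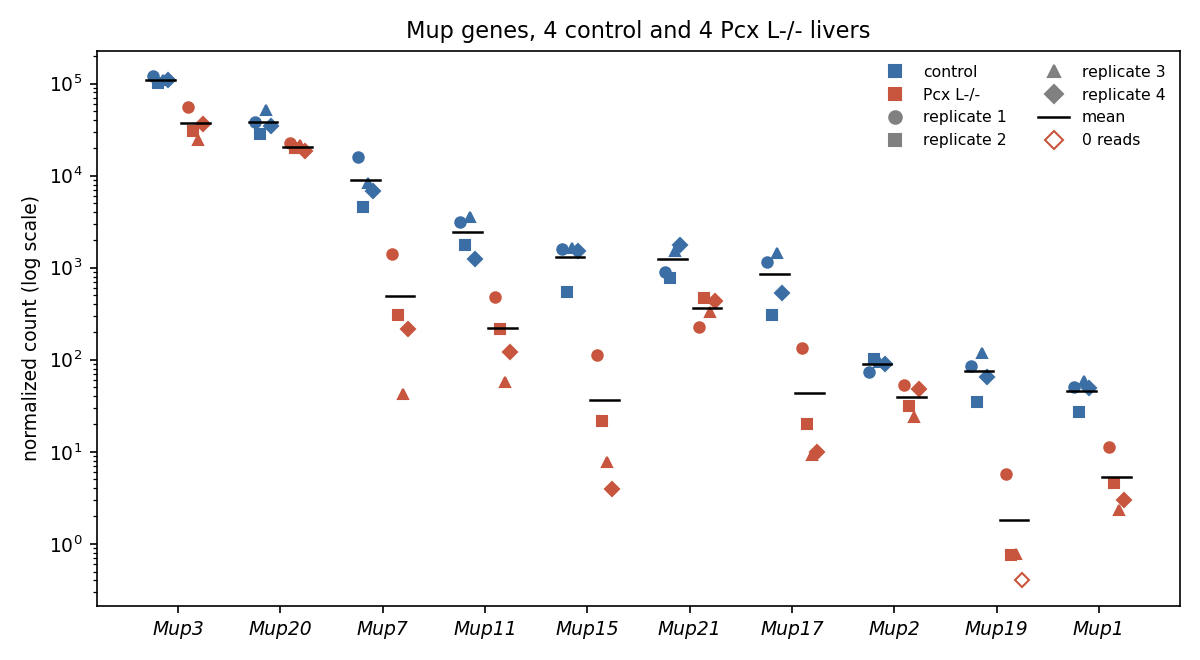
Normalized counts (log axis) of the 10 Mup genes in each of 4 control (blue) and 4 Pcx L-/- (red) livers, ordered by control mean, with black lines at the group means and marker shapes for replicate numbers. The groups do not overlap for any of the 10 genes, and the open diamond, drawn below the lowest count, is the Mup19 library with 0 reads.

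**Figure D3:**
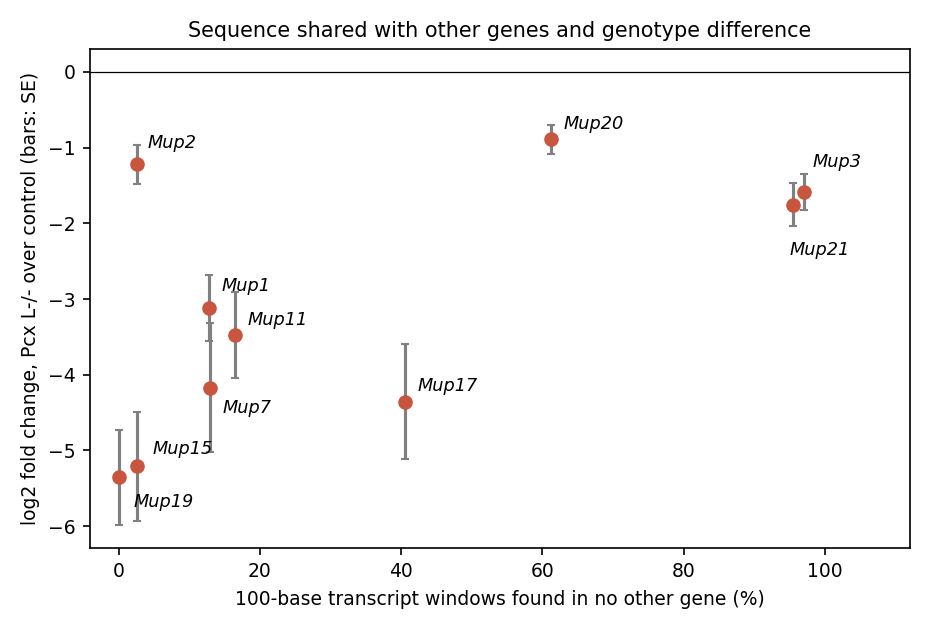
Log2 fold change of each member (vertical axis, bars show SE) against the percentage of its 100-base transcript windows found in no other annotated gene (horizontal axis). The 3 genes at 61.16% or more lie between -1.75 and -0.89, and the 7 at 40.58% or less lie between -5.36 and -1.22.

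The members were chosen on this contrast, so their calls follow from that choice and nothing is read from them. All 10 passed the filter on low counts and were among the genes called lower by edgeR's quasi-likelihood test at an adjusted p under 0.05, where 13.5% of 13168 genes tested were lower, 14.1% higher and 27.6% altered in either direction. In each of the 10 genes the groups were apart, against 12.5% of genes tested that were lower without overlap and 27.6% in either direction. The median of their log2 fold changes was -3.30, and that of all genes tested was -0.01.

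The labels give mouse numbers in 2 ranges, and the low one holds control replicates 1 and 2 and Pcx L-/- replicate 1. Within it the family total of the single Pcx L-/- mouse was 50.8% of the mean of the 2 controls. In the high range, 3 Pcx L-/- mice had 30.6% of the mean of 2 controls. The sum of the 7 near-identical genes was 15.2% of control in the low range and 2.97% in the high range, and Mup20 was 68.6% and 46.2%. The low range holds a single knockout mouse, so the range and that mouse cannot be told apart.

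As the family total was lower, its makeup also differed. Mup3 made up 68.0 ± 5.17% (SD, n = 4) of the family's reads in controls and 61.7 ± 7.09% in Pcx L-/- livers, with groups that overlapped. Mup20 made up 21%, 20.3%, 28.9% and 22.1% in control replicates 1 to 4 and 28.0%, 38.4%, 46.2% and 33.1% in Pcx L-/- replicates 1 to 4, so that only the highest control passed the lowest knockout. Together Mup3 and Mup20 made up 91.1 ± 2.85% (SD, n = 4) in controls and 98.1 ± 0.851% in Pcx L-/- livers, without overlap. All shares are of the reads that were counted. If reads with several matches were left out, those of the 7 near-identical genes are too low and those of Mup3 and Mup20 too high.

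The share of Mup7 was 5.27 ± 2.38% in controls and 0.704 ± 0.724% in Pcx L-/- livers, and that of Mup11 1.45 ± 0.523% and 0.339 ± 0.21% (SD, n = 4 each). The shares of Mup1, Mup7, Mup11, Mup15, Mup17 and Mup19 were lower in every Pcx L-/- liver than in any control. Those of Mup2, at 0.0564 ± 0.0139% in controls and 0.066 ± 0.0145% in Pcx L-/- livers, overlapped. For Mup21 the difference of -0.0849 percentage points had no stable sign, since it was 0.0389 without control replicate 4 and 0.0451 without Pcx L-/- replicate 1.

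The deposited FPKM divide by gene length, but not by the part of a gene to which reads can be assigned by sequence. Ranks that involve any of the 7 near-identical genes are therefore as uncertain as their counts. On this scale the controls ranked Mup3 (median 5925 FPKM), Mup20 (2038), Mup7 (382.8), Mup11 (145.1), Mup21 (96.5), Mup15 (87.2), Mup17 (48.0), Mup2 (5.14), Mup19 (4.21) and Mup1 (2.78). Ranges of neighbours were apart for Mup3 against Mup20, Mup20 against Mup7, Mup7 against Mup11 and Mup17 against Mup2, and overlapped in the other 5 pairs. In Pcx L-/- livers the medians were 2298 FPKM for Mup3, 1434 for Mup20, 38.0 for Mup21, 17.1 for Mup7 and 12.3 for Mup11. Mup21 thus had rank 5 in controls and rank 3 in Pcx L-/- livers, where its range met that of Mup7.

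Other genes of the cluster had few counted reads. Of the 38 other annotated Mup genes in the table, 25 had at least 1 read, and together they held 0.539% of all Mup reads counted. Of the 100-base windows, 8.6% for Mup14, 14.61% for Mup10, 19.93% for Mup16 and 22.49% for Mup12 were found in no other gene. That share was 12.88% for Mup18, 14.9% for Mup9, 22.15% for Mup8 and 17.68% for Mup13. Counts of these genes are thus as uncertain as those of the 7 near-identical members. Among the protein-coding ones, mean normalized counts in controls and in Pcx L-/- livers were 286 and 30.4 for Mup14, 254 and 80.4 for Mup10, 128 and 11.6 for Mup16 and 97.8 and 12.5 for Mup12. Mup18, Mup9 and Mup8 did not pass the filter, with 14.8 and 3.81, 12.9 and 1.28, and 13.9 and 0.999. On normalized counts every control was above every Pcx L-/- liver in these 7 genes, where 12.5% of genes tested were lower without overlap. On raw reads Mup18 overlapped, with 6 in control replicate 2 and 7 in Pcx L-/- replicate 3. Mup9 and Mup8 had 6 and 5 reads in all Pcx L-/- livers together. Mup6, for which 100% of the windows were found in no other gene, had 30 reads in all controls and 26 in all Pcx L-/- livers, and Mup4, Mup5 and Mup13 had 0 reads. The pseudogenes Mup-ps16 and Mup-ps13 passed the filter, with log2 fold changes of -1.47 and -0.69 and groups that overlapped. The other 15 pseudogenes with reads, Mup-ps1, Mup-ps2, Mup-ps4, Mup-ps6 to Mup-ps9, Mup-ps11, Mup-ps12, Mup-ps14, Mup-ps15, Mup-ps17, Mup-ps19, Mup-ps20 and Mup-ps23, had at most 60 reads each over the 8 libraries.

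Promoter windows from RefSeq (GRCm38.p6), 250 bases before to 50 after the start, were matched for 8 members, that is for all but Mup1 and Mup20. The palindromic STAT5 motif TTCNNNGAA was in 0 of the 8 windows and in 8.3% of 32851 windows of all genes, the C/EBP motif TTGCNNAA in 0 of 8 and 10.8%, and the TATA box TATAAA in 0 of 8 and 13.6%, each searched on both strands. The variant TATATAA, which was chosen after the sequences were seen, was in 7 of 8 (not Mup7) and in 3.24% of all windows. Stretches of 80 bases that end with it are printed to show how members differ just before the start, with the shared TATATAAGG in capitals, for chr4:60139875-60139954, chr4:61439721-61439800, chr4:62087320-62087399 and chr4:62150841-62150920, all on the minus strand.
Mup2: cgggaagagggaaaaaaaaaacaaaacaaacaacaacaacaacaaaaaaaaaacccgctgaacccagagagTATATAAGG
Mup15: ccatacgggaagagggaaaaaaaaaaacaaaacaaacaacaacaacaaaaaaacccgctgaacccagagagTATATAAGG
Mup3: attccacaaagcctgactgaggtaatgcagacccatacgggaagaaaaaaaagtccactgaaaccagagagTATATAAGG
Mup21: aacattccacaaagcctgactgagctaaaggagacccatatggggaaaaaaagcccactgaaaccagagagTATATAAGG
Mup2 and Mup15, and likewise Mup11, Mup17 and Mup19, hold an unbroken run of 40 to 45 bases of A or C before the box, where the longest such run is 8 bases in Mup3 and 7 in Mup21. Among the genes with the run, Mup2 had a log2 fold change of -1.22 and Mup15 of -5.21.

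Genes of growth hormone signalling and hepatic factors known to act on Mup or sex-biased genes were tested with edgeR, with adjustment over all genes tested. Of 22 such genes 7 fell and 1 rose, against 13.5% and 14.1% of all genes tested, and their median log2 fold change was -0.30. This list, like those that follow, was chosen with earlier results of these data known, so its counts are a description. Ghr, the growth hormone receptor, fell by 0.69 on the log2 scale (SE 0.14, adjusted p = 0.0059), from 5817 to 7438 normalized counts in controls to 3656 to 5021 in Pcx L-/- livers, and its groups did not overlap. Stat5b, the transducer of the growth hormone pulse, had a log2 fold change of -0.23 (SE 0.11, adjusted p = 0.128), which was 0.06 at its highest among 19 alternatives, and Stat5a rose by 0.42 (SE 0.13, adjusted p = 0.0337).

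Targets of growth hormone in the list included Igf1, the circulating growth factor, with a log2 fold change of -1.05 (SE 0.26, adjusted p = 0.0133), and Igfals, its binding partner, with -1.05 (SE 0.32, adjusted p = 0.0314). Socs2, Cish and Bcl6, also in the list, had -0.74 (SE 0.43), -0.39 (SE 0.54) and 0.46 (SE 0.41). None of them passed edgeR's test (adjusted p = 0.227, 0.632 and 0.432), and each was called under 2 of 19 alternatives. Cux2, a female-biased repressor of male-biased genes, had 178.4, 124.6, 396.6 and 188.4 normalized counts in control replicates 1 to 4 and 75.5, 13, 17.1 and 23.8 in Pcx L-/- replicates 1 to 4, a log2 fold change of -2.81 (SE 0.52, adjusted p = 0.00364), and -3.65 without Pcx L-/- replicate 1. Igf1 and Igfals in Pcx L-/- replicate 1, at 8494 and 1581 normalized counts, lay within the control range. That was also the knockout liver with the highest level of 9 of the 10 Mup genes, Mup21 being the exception. Its summed hepatocyte markers, 1652740 normalized counts, were likewise the highest of the knockouts, where the others had 1058000 to 1213330. What sets this liver apart was not tested.

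Among receptors for the other hormones, Thrb, a thyroid hormone receptor, fell by 0.83 (SE 0.23, adjusted p = 0.0199) and Nr3c1, the glucocorticoid receptor, by 0.51 (SE 0.15, adjusted p = 0.0293). Of the zinc finger factors, Zbtb20 fell by 0.56 (SE 0.18, adjusted p = 0.0371) and Zhx2 had 0.08 (SE 0.18, adjusted p = 0.792). Ghr, Cux2 and Igf1 were called under all 19 alternatives, while the calls of Stat5a, Igfals, Nr3c1, Thrb and Zbtb20 were lost under 9, 6, 10, 5 and 10 of them. The number that fell was 3 when Pcx L-/- replicate 2 or replicate 4 was left out and 4 when control replicate 3 was left out. The call of Stat5a was lost, leaving 0 genes that rose, on leaving out any mouse but control replicate 3 and Pcx L-/- replicate 1.

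Male-biased liver genes outside the Mup cluster were lower as well. Of 13 tested, 11 fell and 0 rose, against 13.5% and 14.1% of all genes tested, with a median log2 fold change of -1.36. At an unadjusted p under 0.05 the number was also 11. The list was chosen with earlier results of these data known, so these counts are not an independent comparison. The lowest log2 fold changes were -3.93 for Selenbp2, a selenium-binding protein (SE 0.57, adjusted p = 0.0012), -2.71 for Susd4, a complement regulator (SE 0.32, adjusted p = 0.000638), -1.82 for complement component C6 (SE 0.23, adjusted p = 0.00082) and -1.75 for the steroid dehydrogenase Hsd3b5 (SE 0.48, adjusted p = 0.0194). At the other end, the fatty acid elongase Elovl3 had 0.17 (SE 0.28), the fatty acid hydroxylase Cyp4a12b -0.35 (SE 0.29), Cyp4a12a -0.51 (SE 0.17) and complement C4a -0.95 (SE 0.23), of which Cyp4a12a and C4a passed the test with adjusted p of 0.0443 and 0.0118. The call of Cyp4a12a was lost under 11 of 19 alternatives, among them scaling by library size, and any mouse left out but control replicate 2 and Pcx L-/- replicate 1. Selenbp2 had an outlying control liver, replicate 1, with 1362 normalized counts against 299.1 to 435.3 in the other 3, and without that liver its log2 fold change was -3.18, still called. The Hsd3b5 groups overlapped, and its call was lost under 6 of 19 alternatives, which were the 3 limma fits, the mice of the high number range, and control replicate 1 or Pcx L-/- replicate 3 left out.

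Of 18 female-biased liver genes listed, 8 were tested. Of these 8, 3 rose and 2 fell, against 14.1% higher and 13.5% lower among all genes tested, with a median log2 fold change of 0.21, and 4 of those listed had 0 reads in every library. Cyp2b10, a drug-metabolizing cytochrome, rose by 1.78 (SE 0.48, adjusted p = 0.0195), the steroid hydroxylase Cyp2a4 by 1.66 (SE 0.36, adjusted p = 0.00769) and the transcription factor Tox by 0.81 (SE 0.20, adjusted p = 0.0134), while Cyp2b9 had 0.54 (SE 0.67), and -0.36 without Pcx L-/- replicate 3. The monooxygenase Fmo2 had -1.71 (SE 0.34, adjusted p = 0.00504) and fell, as did Cux2 above, while the thioesterase Acot3 had -0.75 (SE 0.34) and the steroid hydroxylase Cyp17a1 -0.11 (SE 0.42), and 0.57 without control replicate 4. The call of Cyp2b10 was lost without control replicate 1 or 3 and without Pcx L-/- replicate 3 or 4, and its log2 fold change was 2.47 without control replicate 4.

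Other lipocalins and relatives are small lipid-binding proteins of similar fold. Of 13 tested 5 fell and 2 rose, against 13.5% lower and 14.1% higher among all genes tested, with a median log2 fold change of -0.28. Lcn2, an acute-phase lipocalin that binds bacterial siderophores, rose by 1.67 (SE 0.38, adjusted p = 0.00873) and Fabp5, a fatty acid binding protein, by 1.46 (SE 0.21, adjusted p = 0.0012). Apom, a lipocalin of lipoprotein particles, fell by 0.94 (SE 0.22, adjusted p = 0.00995), and the orosomucoid Orm3 had -1.20 (SE 0.48, adjusted p = 0.0843), and -1.85 without Pcx L-/- replicate 1, where it was called. The number that fell was 1 with any of Pcx L-/- replicates 2 to 4 left out, 2 with control replicate 3 left out and 3 with control replicate 1 left out.

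**Figure D4:**
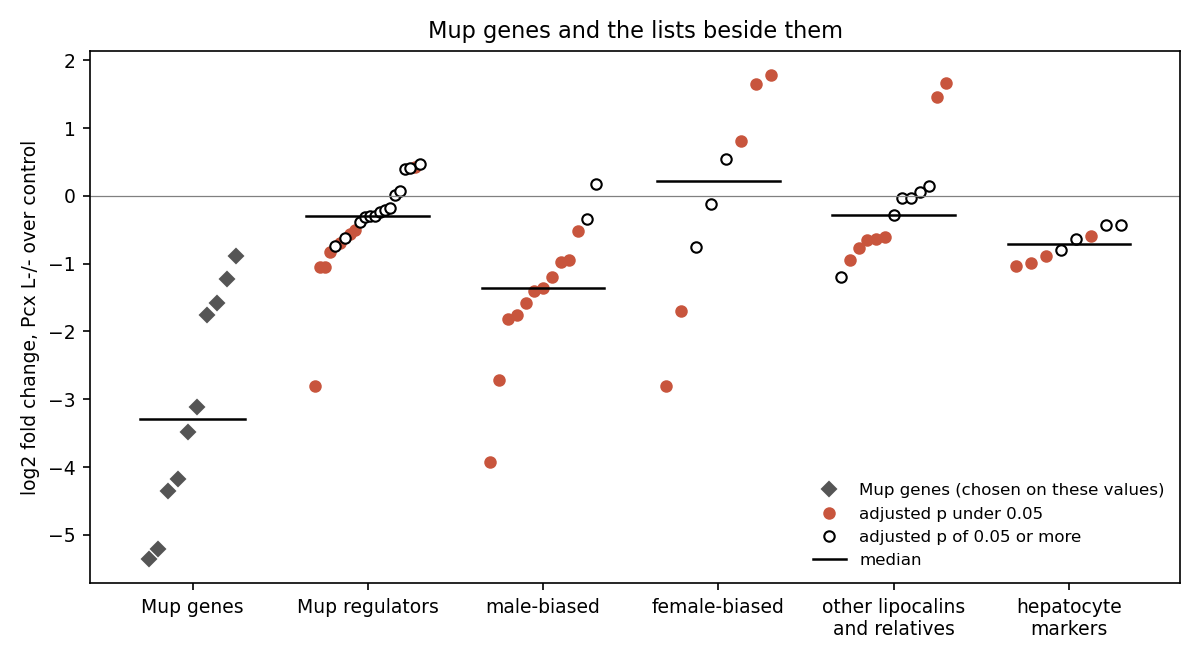
Log2 fold change, Pcx L-/- over control, of the Mup genes (grey, chosen on these values) and of the genes tested in 5 lists, with filled red points for an adjusted p under 0.05 by edgeR and lines at the medians. The medians are -3.30 for the Mup genes, -0.30 for Mup regulators, -1.36 for male-biased genes, 0.21 for female-biased genes, -0.28 for other lipocalins and relatives and -0.71 for hepatocyte markers.

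Among 13152 genes tested outside the Mup family, the profile over the 8 libraries most like that of the family total on log2 normalized counts was E030018B13Rik (Pearson r = 0.993). Lims2 and C9 followed with 0.991 and Hao1 and Keg1 with 0.989. As the genotype difference enters this measure, 852 genes had an r above 0.9. After each genotype's mean was subtracted, the highest were E030018B13Rik (0.984), Fbxo22 (0.983), Atp5b (0.98), Aldh7a1 (0.976) and Mavs (0.974), and 81 genes were above 0.9. These correlations describe 8 libraries and share their scaling and, in the second measure, the distance of Pcx L-/- replicate 1 from the other 3 knockouts. E030018B13Rik led both orders, with 508.9, 383.6, 493.4 and 448 normalized counts in control replicates 1 to 4 and 269.9, 140.4, 117.4 and 140.9 in Pcx L-/- replicates 1 to 4.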

How the data were processed

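Liver RNA of 4 control and 4 Pcx L-/- mice was sequenced by a company. The authors deposited raw read counts per Ensembl gene, aligned to mm10 (GRCm38). An FPKM table was deposited as well; within a relative tolerance of 1e-05, 100% of its 142384 values above 0 are the count over 1 length per gene and the library total. The submitters' processing notes name STAR 2.5, HTSeq 0.6.1 and DESeq2, without roles; read length, strand and the treatment of reads with several matches are not given there.

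The members and all gene lists were chosen with earlier results of these data known. From the regulator and female-biased lists, 1 gene each is not reported here and enters no count of its list. Genes were named by rule: the 10 members, other Mup genes with reads, Pcx, regulators past the threshold with Ghr, Stat5b, Zhx2 and Zbtb20, the 4 highest and 4 lowest of the sex-biased lists, the 2 highest and 2 lowest lipocalins, and the 5 profiles most like the family total in each measure. Socs2, Cish and Bcl6 were named in addition.

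Symbols from GENCODE M21 matched 34490 of 35275 identifiers. Genes were kept by filterByExpr (minimum count 10, minimum total 15) and tested with edgeR 4.0.16 in R 4.3.3 (TMM, quasi-likelihood F test, genotype only, Benjamini-Hochberg over 13168 genes). SEs are the log2 fold change over the square root of F and approximate. The biological coefficient of variation was 0.181 with 6 residual degrees of freedom. The steps were tested on simulated data. Alternatives used DESeq2 1.42.0 with and without apeglm 1.24.0, limma 3.58.1 on log2(FPKM + 1) and log2(FPKM + 0.1), other scalings, no filter, a replicate block, mouse-number range, and each mouse left out. Coding sequences were aligned with MAFFT 7.526. The labels give each library its own mouse number. Depth limits genes with few reads, such as Mup19.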

Additional observations from a re-analysis of the deposited data

Results flagged for a closer look

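Of 134 groups of 4 livers examined (members, their shares, the family total and other genes named), 16 held a liver far from the other 3 by Dixon's test at the 95% level. Chance alone gives about 1 in 20 groups where groups are independent and not selected, which these were not. Pcx L-/- replicate 1 was that liver in 13 of the 16. Among Mup values it had 112.3 normalized counts of Mup15, 133 of Mup17 and 5.66 of Mup19, and a share of 0.163% of the family's reads for Mup17. Among other genes it had 8494 normalized counts of Igf1, 1581 of Igfals, 1263 of Elovl3, 717.1 of Cyp2b10, 43.4 of Orm3, 2421 of Apom, 269.9 of E030018B13Rik, 261.4 of Keg1 and 7156 of Aldh7a1. In all of these genes except Elovl3, the liver lay on the control side of the other 3 knockouts. Its Pcx level, 757.7 normalized counts, was close to the 555.7 to 732.3 of the other 3. The red cell marker Hba-a1 had 27470 normalized counts in this liver and 2322 to 5940 in the other 3. Its TMM factor was 0.970, against 1.14 to 1.16 in the other 3. The part of blood content or scaling in these values was not tested.

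The other 3 were control replicate 2 with 537.5 normalized counts of Mup15, control replicate 1 with 1362 of Selenbp2 and Pcx L-/- replicate 3 with 14 of Hsd3b5. These genes share libraries, and many were selected by fold change or by likeness to the family total. The 16 are thus not independent, and their number cannot be set against the chance rate.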

How the results depend on the processing

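All 190 values of the members' log2 fold changes under 19 alternatives were below 0, and 1 call was lost, that of Mup20 (-0.57) in limma on log2(FPKM + 1) without the filter. The members were chosen on this contrast in the same libraries, so nothing is read from these signs and calls. The number of genes altered, 3632, was 2975 with the replicate block and 2109 to 4602 when 1 mouse was left out (2109 without Pcx L-/- replicate 4 and 2295 without replicate 2). The labels do not say whether replicate numbers pair the mice. Same-numbered deviations correlated at 0.118, -0.145, -0.121 and -0.0806, and not every mouse correlated best with its own number. With so few mice these values cannot exclude pairs or shared litters. With that replicate block 0 regulators rose. The members' median of -3.30 was -1.80 in limma on log2(FPKM + 1), with or without the filter, -1.59 for Mup3, Mup20 and Mup21 only (added after the data were seen) and -3.98 to -3.00 with 1 mouse left out. The family total, a log2 ratio of -1.48, was -0.80 relative to the hepatocyte markers and -1.68 to -1.38 with 1 mouse left out. As a percentage of library reads its log2 ratio was -1.22 (42.95% of control), and from summed FPKM -1.21 (43.27% of control). The combined share of Mup3 and Mup20 differed by 5.77 to 8.01 percentage points, and the share of Mup21 by -0.171 to 0.0451, with 1 mouse left out.

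Regulators that fell numbered 4 in limma on log2(FPKM + 1) and on log2(FPKM + 0.1), 3 without the filter, 11 in the mice of the high number range and 3 to 10 with 1 mouse left out, and those that rose 2 by library size and in all 3 limma fits, 0 with the number range as covariate and 0 to 2 with 1 mouse left out. Male-biased genes that fell numbered 7 in limma without the filter and 8 to 13 with 1 mouse left out. Lipocalins that fell numbered 2 by library size and in both filtered limma fits, 1 without the filter, 3 with the number range as covariate and 1 to 7 with 1 mouse left out. The causes were not tested.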
